A study of Mus musculus with 12 samples.

Results

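The genes described are 46 effector genes of the type I interferon response, out of 32698 gene rows in the table. They were taken by symbol from a fixed list of antiviral effectors, RNA sensors, members of the ISG15 system and related induced genes. Transcription factors of the pathway were not on that list, and those reported are given separately. All 46 were in the table, and all 46 passed the filter on low counts. They were measured by RNA sequencing in naive mouse CD4+ T cells that had been stimulated in culture through CD3 and CD28 with antibodies, which mimic the signal of an antigen. The cells were labelled Keap-1 KO (KKO), lacking the gene Keap1, or WT. The 4 groups were KKO at 48 h, WT at 48 h, KKO at 24 h and WT at 24 h of activation, with 3 libraries each. All 12 libraries thus come from stimulated cells, and no unstimulated cells are in the comparison. The labels do not give the strain or age of the mice, how Keap1 was deleted, or whether replicate libraries stem from different mice or cultures. The p-values therefore measure the spread between these libraries, which may be technical in part.

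Type I interferons are secreted proteins that warn cells of a viral infection. They bind a receptor of the chains Ifnar1 and Ifnar2 and, through the kinases Jak1 and Tyk2, activate a complex of transcription factors that includes Stat2 and Irf9. This complex binds the interferon-stimulated response element in promoters and switches on a large set of genes whose products detect viral nucleic acid, block viral replication or regulate the response itself. In T cells the same genes respond to interferon made by other cells or by the T cells themselves. Keap1 marks the transcription factor Nrf2 for degradation, and Nrf2 controls genes of redox and drug metabolism.

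The response element has a core that can be written GAAANNGAAA, where N is any base. RefSeq promoter sequences of mouse build GRCm38.p6, which run from 250 bases before to 50 bases after a transcript start, were found for 33 of the 46 genes. The core was searched on both strands, and matches were allowed to overlap. It was in a promoter of 15 of these 33 genes (45.5%), against 3.99% of all 27025 genes with a promoter and 3.44% of all 32851 promoters. A match describes the letters only and does not show that a factor binds there. The following 6 stretches show the core, or overlapping copies of it, in capitals, because the genes span the antiviral effectors, the synthetases, the sensors, the ISG15 system and the membrane proteins. They lie at chr4:156200860-156200911 (minus strand) for Isg15, chr19:34640770-34640828 (plus strand) for Ifit1, chr19:34583358-34583431 (plus strand) for Ifit3, chr8:71537572-71537617 (minus strand) for Bst2, chr8:61928019-61928086 (plus strand) for Ddx60 and chr5:120777710-120777749 (minus strand) for Oas3. Each is written 5′ to 3′ on the strand of its gene, so that a core on the opposite strand reads TTTCNNTTTC.
Isg15: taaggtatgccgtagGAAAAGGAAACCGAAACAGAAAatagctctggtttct
Ifit1: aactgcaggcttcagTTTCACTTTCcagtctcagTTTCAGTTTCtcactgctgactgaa
Ifit3: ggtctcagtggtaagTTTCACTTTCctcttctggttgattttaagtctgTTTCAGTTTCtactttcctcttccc
Bst2: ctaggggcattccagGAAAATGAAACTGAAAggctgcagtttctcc
Ddx60: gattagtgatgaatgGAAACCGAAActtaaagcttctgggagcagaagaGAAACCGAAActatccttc
Oas3: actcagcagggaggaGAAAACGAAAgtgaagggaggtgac
The Isg15 stretch holds 3 overlapping copies on the gene's strand, and that of Bst2 holds 2. Those of Ifit1 and Ifit3 hold 2 separate copies on the opposite strand.

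Depth was 17.8 to 32.6 M (mega) expected counts per library. Levels are given as CPM, counts per M of the scaled library total. Keap1 itself stood at 22.5, 20.7 and 20.2 CPM in KKO at 48 h, against 124, 132 and 122 CPM in WT at 48 h, and at 16.5, 15.7 and 17.5 CPM in KKO at 24 h, against 106, 109 and 106 CPM in WT at 24 h, so each library matched its genotype label. The Nrf2 target Nqo1 was higher in KKO at both times (log2 fold changes 3.83 at 48 h and 4.56 at 24 h). The 8 T cell markers summed to 2551 to 2880 CPM in KKO and 2537 to 2708 CPM in WT at 48 h. At 24 h they summed to 2627 to 2702 CPM in KKO and 2790 to 2896 CPM in WT, apart and lower in KKO. Among them at 48 h, Cd4 stood at 474 ± 16.8 CPM in KKO and 493 ± 5.99 CPM in WT (SD, n = 3). Cd2 was higher in KKO at 48 h, with 467 ± 62.1 CPM against 338 ± 27.8 CPM in WT. The CD8 genes Cd8a and Cd8b1 summed to 12.7 to 13.4 CPM in KKO and 8.32 to 10.6 CPM in WT at 48 h. In 2 KKO libraries, replicate 3 of 48 h and replicate 1 of 24 h, both Xist (105 and 76.2 CPM) and Y-linked transcripts (149 and 125 CPM) were found, whereas in each of the other 10 libraries 1 of these kinds was at 2.83 CPM or less. Counts are therefore also given without these 2 mixed libraries. Each group held a library with mostly Xist and a library with mostly Y-linked transcripts, so each group holds cells of more than 1 mouse.

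At 48 h the interferon genes were lower in KKO almost throughout. Together they summed to 1746, 2002 and 1884 CPM in KKO, against 2707, 3251 and 3018 CPM in WT. Of the 46 genes, 41 were lower, 1 was higher and 4 were not called (edgeR's quasi-likelihood test, Benjamini-Hochberg adjusted p under 0.05 over the 13196 genes tested). Of all tested genes 24.3% were called at this time, 11.9% lower and 12.4% higher. The median log2 fold change was -1.02 over the 46 genes, against -0.00 over all tested genes. At least 2-fold lower were 24 of the 46, against 1.29% of all tested genes, and 0 of the 46 were at least 2-fold higher, against 2.96%. In 40 of the 46 every KKO library lay below every WT library, in 1 every KKO library lay above, and in 5 the groups overlapped, while 16.2% of all tested genes lay apart and lower and 17.1% apart and higher. With both mixed libraries left out, 38 genes were lower and 1 was higher, with a median of -1.005. In such bulk RNA, fewer cells that express a gene and less of its RNA per cell cannot be told apart.

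**Figure D1:**
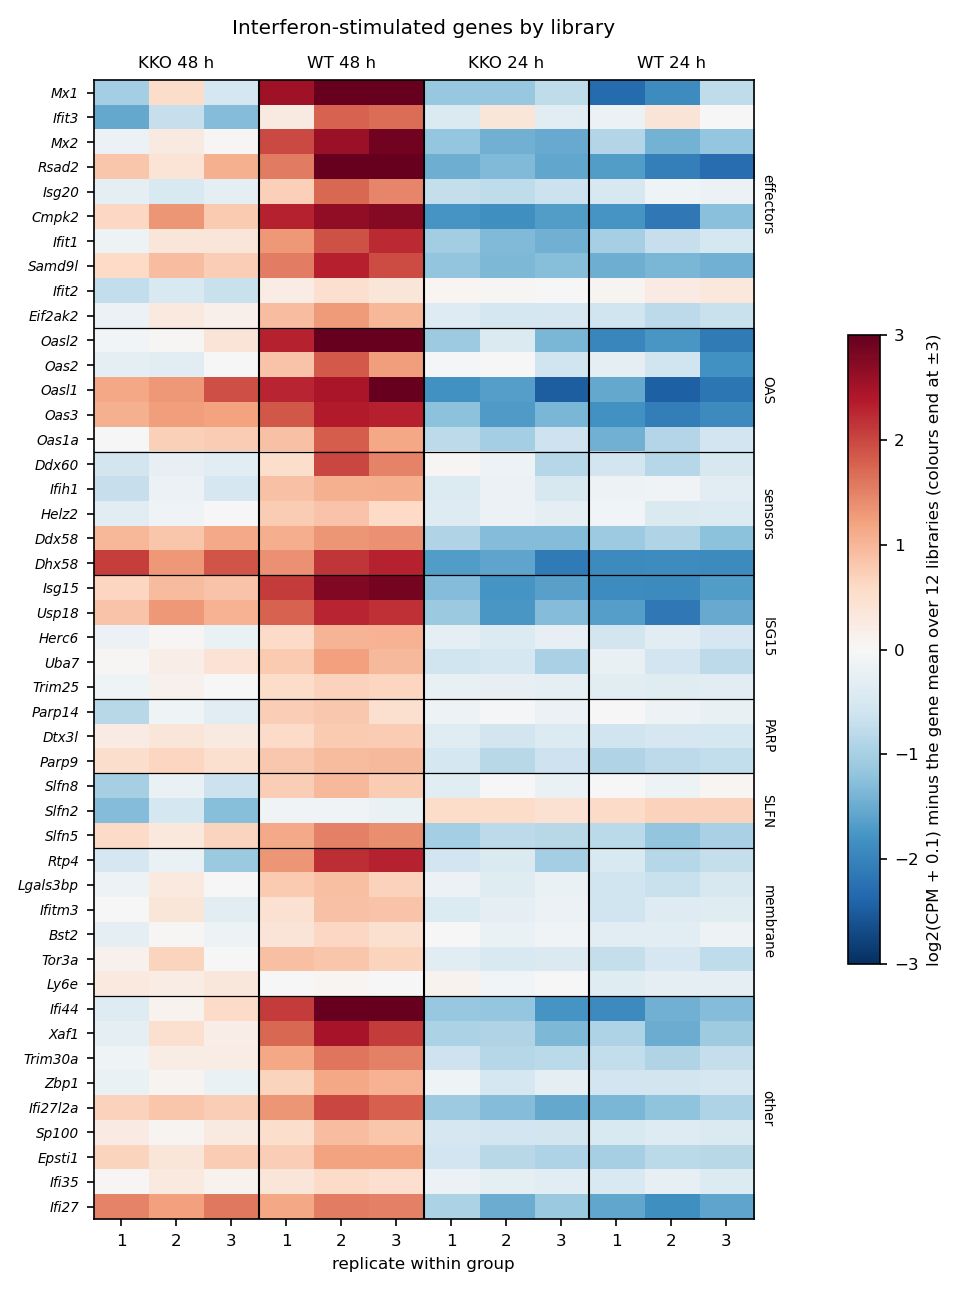
Colour shows log2(CPM + 0.1) of each gene minus its mean over the 12 libraries, with 1 row per gene and 1 column per library. The 3 WT libraries at 48 h are the reddest columns for most genes, and Slfn2 and Ly6e stand out with other patterns.

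The 10 antiviral effectors that act on RNA, nucleotides or translation all fell at 48 h, 8 of them at least 2-fold, with a median log2 fold change of -1.71. Mx1, a GTPase that traps viral nucleocapsids, had 0.590, 1.92 and 0.858 CPM in KKO at 48 h, against 8.05, 12.7 and 12.995 CPM in WT at 48 h. The KKO libraries were all far below the WT ones, 10.2-fold on the fitted scale (log2 fold change -3.35 ± 0.38, SE; edgeR adjusted p = 7.98e-05). RefSeq lists Mx1 and Mx2 as transcribed pseudogenes in the reference strain, so that these values are RNA levels only. Mx2, its neighbour 72400 bases away on chromosome 16, had 1.23, 1.70 and 1.43 CPM in KKO at 48 h, against 5.87, 8.97 and 11.1 CPM in WT at 48 h, 5.97-fold lower without overlap (-2.58 ± 0.25, edgeR adjusted p = 1.34e-05). Ifit3, a partner of the cap-sensing protein Ifit1, was near the lower end of detection, with 0.147, 0.339 and 0.191 CPM in KKO at 48 h, against 0.761, 2.34 and 2.18 CPM in WT at 48 h. WT replicate 1 stood well under the other WT libraries but above all 3 KKO libraries, and the gene was 7.88-fold lower in KKO (-2.98 ± 0.50, edgeR adjusted p = 0.0011). Eif2ak2, the double-stranded RNA kinase PKR that halts translation, was the most abundant of these genes in CPM, with 34.01, 47.2 and 42.5 CPM in KKO at 48 h, against 73.3, 92.6 and 76.8 CPM in WT at 48 h. It fell 1.97-fold (-0.98 ± 0.11, edgeR adjusted p = 6.59e-05), again without overlap.

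The other 6 effectors fell by log2 fold changes between -2.20 and -0.99. Rsad2 (viperin, which makes a chain-terminating nucleotide) and Cmpk2 (a nucleotide kinase) are neighbours on chromosome 12 with 12751 bases between them, and changed by -2.20 and -1.70. Isg20, an RNA exonuclease, changed by -1.72, Ifit1 by -1.69, Samd9l, a poxvirus restriction factor, by -1.22 and Ifit2 by -0.99. Rsad2 varied most among the WT libraries, at 1.85, 5.21 and 7.49 CPM, against 1.08, 0.792 and 1.29 CPM in KKO at 48 h. All 6 were called, and in all 6 the KKO libraries lay below the WT libraries.

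**Figure D2:**
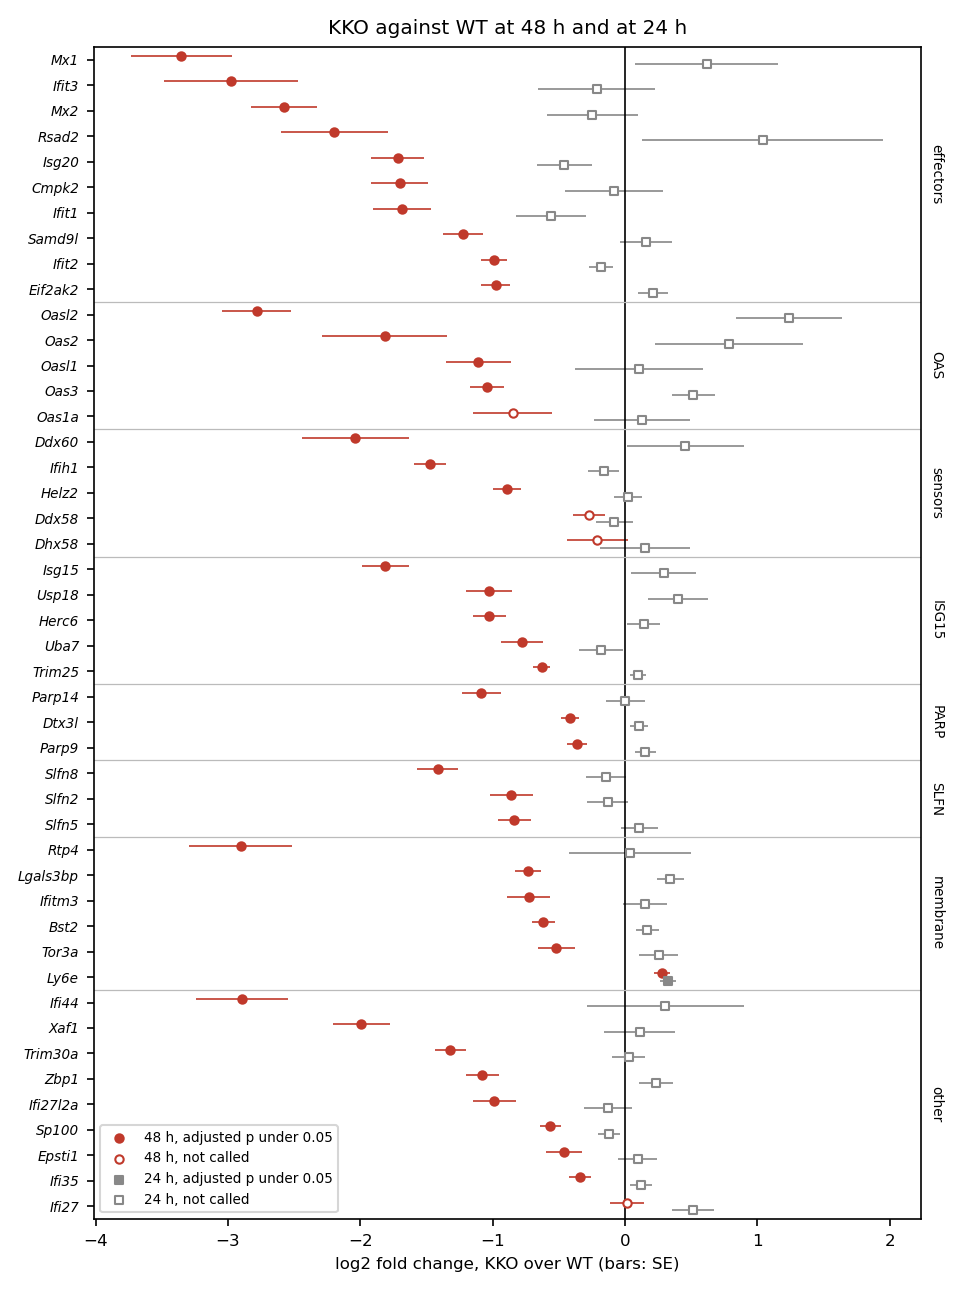
Points show log2 fold changes, KKO over WT, with SE, for 46 genes in 8 groups by role; circles are 48 h and squares 24 h, and filled symbols have an adjusted p under 0.05. At 48 h 41 filled circles lie left of 0 and 1, Ly6e, lies right of it, while at 24 h the only filled square is Ly6e.

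The oligoadenylate synthetases make a messenger molecule that activates the RNA-degrading enzyme RNase L. Of their 5 family members, 4 fell and Oas1a was not called. Oasl2 had 1.18, 1.30 and 1.67 CPM in KKO at 48 h, against 6.58, 11.1 and 10.96 CPM in WT at 48 h. Its KKO libraries were close to each other and far below WT, 6.89-fold (-2.78 ± 0.26, edgeR adjusted p = 1.19e-05). Oasl1, which in mouse represses translation of the factor Irf7, had 3.78, 4.19 and 6.53 CPM in KKO at 48 h, against 8.32, 9.41 and 13.6 CPM in WT at 48 h, 2.16-fold lower (-1.11 ± 0.25, edgeR adjusted p = 0.00597). Oas3, the most abundant member in CPM, had 47.04, 52.99 and 51.3 CPM in KKO at 48 h, against 81.3, 117 and 112 CPM in WT at 48 h, 2.06-fold lower (-1.04 ± 0.13, edgeR adjusted p = 0.000169). These groups did not overlap. Oas2, adjacent to Oas3 with 3244 bases between them, was the lowest of the 46 genes per length in WT at 48 h and had 0.295, 0.283 and 0.381 CPM in KKO at 48 h, against 0.761, 1.59 and 1.04 CPM in WT at 48 h (-1.81 ± 0.47, edgeR adjusted p = 0.0135). Its call was lost when both mixed libraries, WT replicate 2 or KKO replicate 1 of 48 h were left out (edgeR adjusted p up to 0.0826). Oas1a had 1.43, 2.43 and 2.48 CPM in KKO at 48 h, against 2.72, 5.30 and 3.32 CPM in WT at 48 h. All its KKO libraries were below all its WT libraries, by small margins, and its adjusted p was 0.0501 with edgeR (-0.85 ± 0.30). Many copies of Oas1 genes lie in this region of the mouse genome, and the authors' counting may split reads between them.

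The RNA sensors were split. Ifih1, the sensor MDA5 of long double-stranded RNA, had 18.5, 26.5 and 20.98 CPM in KKO at 48 h, against 55.5, 63.2 and 64.1 CPM in WT at 48 h. It was 2.78-fold lower in KKO without overlap and had the smallest adjusted p of the 46 genes at 48 h (-1.47 ± 0.12, edgeR adjusted p = 6.78e-06). Ddx60, a helicase with antiviral activity, had 0.442, 0.566 and 0.525 CPM in KKO at 48 h, against 1.03, 3.09 and 2.13 CPM in WT at 48 h, 4.11-fold lower (-2.04 ± 0.40, edgeR adjusted p = 0.00297). Helz2, a helicase that acts as a transcriptional coactivator, was the most abundant member in CPM and had 107, 127 and 134 CPM in KKO at 48 h, against 230.1, 244 and 206 CPM in WT at 48 h, 1.85-fold lower (-0.89 ± 0.11, edgeR adjusted p = 0.000112). The remaining sensors were not called. Ddx58, the sensor RIG-I, had 21.97, 19.6 and 24.4 CPM in KKO at 48 h, against 23.4, 27.7 and 28.6 CPM in WT at 48 h, with overlap (-0.27 ± 0.12, edgeR adjusted p = 0.108). Dhx58, the LGP2 protein that regulates both sensors, had 36.9, 21.5 and 31.996 CPM in KKO at 48 h, against 22.6, 38.3 and 43.5 CPM in WT at 48 h. Its spread within each genotype covered most of the other's range (-0.21 ± 0.23, edgeR adjusted p = 0.547).

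All 5 genes of the ISG15 system, which attaches a ubiquitin-like protein to targets, fell at 48 h. Isg15, the modifier itself, had 12.98, 16.1 and 14.97 CPM in KKO at 48 h, against 35.6, 57.4 and 60.99 CPM in WT at 48 h. WT replicate 1 was the lowest WT library and still stood above every KKO library (3.51-fold lower in KKO, -1.81 ± 0.18, edgeR adjusted p = 3.53e-05). Usp18, the protease that removes ISG15 and also restrains the interferon receptor, had 19.7, 26.6 and 22.5 CPM in KKO at 48 h, against 36.9, 53.3 and 49.3 CPM in WT at 48 h, 2.03-fold lower (-1.02 ± 0.17, edgeR adjusted p = 0.0017). Herc6, the main ISG15 ligase in mouse, had 10.8, 12.6 and 10.6 CPM in KKO at 48 h, against 18.4, 24.9 and 25.5 CPM in WT at 48 h, 2.03-fold lower (-1.02 ± 0.12, edgeR adjusted p = 7.69e-05). Trim25, a ubiquitin ligase that activates RIG-I, had 106, 125 and 114 CPM in KKO at 48 h, against 169, 186 and 179.6 CPM in WT at 48 h. It fell 1.55-fold, a small change with a small spread (-0.63 ± 0.06, edgeR adjusted p = 1.63e-05). Uba7, the activating enzyme for ISG15, changed by -0.78 ± 0.16 (edgeR adjusted p = 0.0037).

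**Figure D3:**
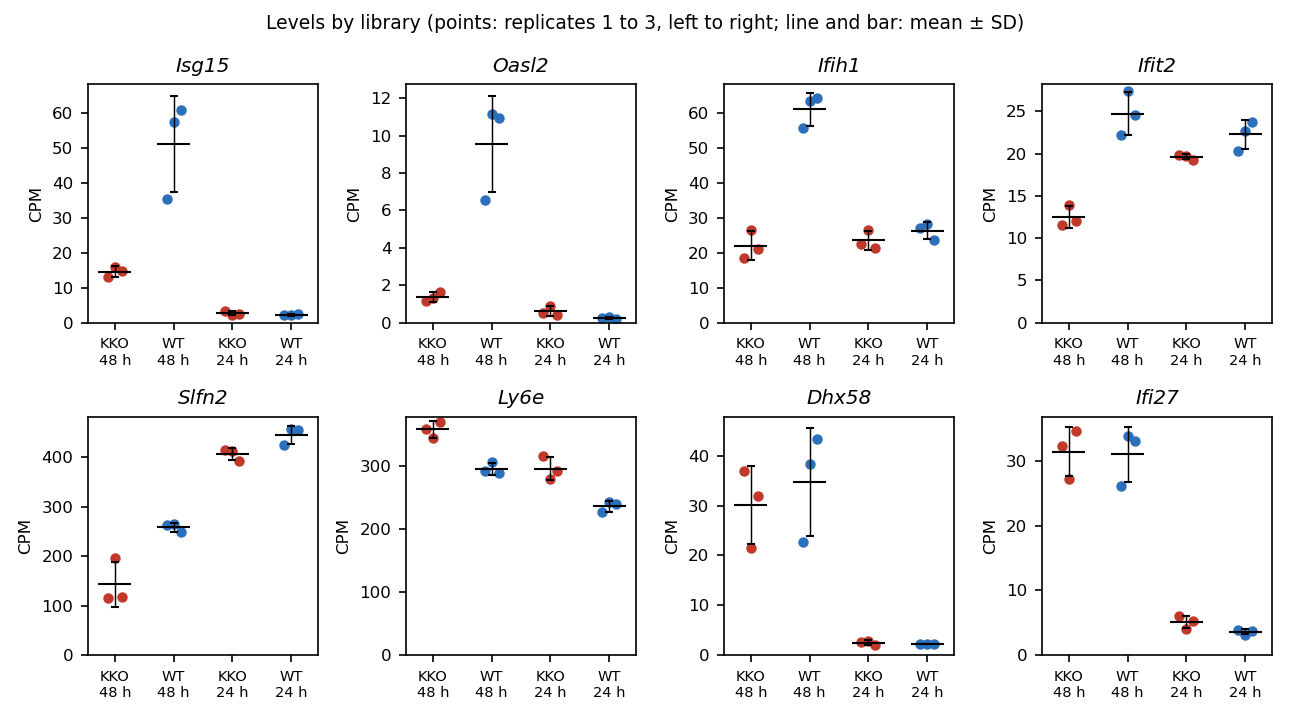
Each panel shows CPM of 1 gene in the 12 libraries, with replicates 1 to 3 from left to right in each group and the mean ± SD as a line and bar. Isg15, Oasl2 and Ifih1 are highest in WT at 48 h, Ly6e is higher in KKO at both times, and Dhx58 and Ifi27 reach like levels in both genotypes at 48 h.

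The ADP-ribosylation genes Parp14, Dtx3l and Parp9 all fell. Parp14, a mono-ADP-ribosyltransferase, had 55.5, 89.6 and 78.1 CPM in KKO at 48 h, against 164, 173 and 137 CPM in WT at 48 h, 2.12-fold lower (-1.09 ± 0.15, edgeR adjusted p = 0.000544). Dtx3l and Parp9, whose proteins form a complex, fell less, by -0.41 ± 0.07 (edgeR adjusted p = 0.000787) and -0.36 ± 0.08 (edgeR adjusted p = 0.00445). Dtx3l had 122, 132 and 125 CPM in KKO at 48 h, against 153, 178 and 174 CPM in WT at 48 h. Parp9 had 100.3, 109 and 96.7 CPM in KKO at 48 h, against 122, 135 and 136 CPM in WT at 48 h. Both sets of libraries lay apart. The genes are on opposite strands and overlap by 682 bases, and the strand used in counting is not given in the sources used here, so their values may not be independent. Of the 3 Schlafen genes all fell. Slfn8 had 8.06, 14.03 and 10.2 CPM in KKO at 48 h, against 26.8, 31.5 and 27.4 CPM in WT at 48 h, 2.66-fold lower (-1.41 ± 0.15, edgeR adjusted p = 5.81e-05). Slfn2, which keeps mouse T cells quiescent, had 115, 196 and 118 CPM in KKO at 48 h, against 262, 266 and 248 CPM in WT at 48 h. KKO replicate 2 stood above the other KKO libraries and below all WT libraries (-0.86 ± 0.16, edgeR adjusted p = 0.00367). Slfn5, a nuclear family member, had 15.04, 12.6 and 16.2 CPM in KKO at 48 h, against 22.3, 29.2 and 26.8 CPM in WT at 48 h, 1.78-fold lower (-0.84 ± 0.12, edgeR adjusted p = 0.000361). The 3 Schlafen genes lie in 1 region of chromosome 11, with 37317 and 44301 bases between them. Their counts were not whole numbers in 11 or 12 of 12 libraries, as happens when reads that match several genes are divided between them.

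Of 6 membrane and secreted proteins 5 fell and 1 rose. Rtp4, a chaperone of membrane receptors, had 0.344, 0.452 and 0.191 CPM in KKO at 48 h, against 1.47, 2.83 and 3.04 CPM in WT at 48 h, 7.48-fold lower and clearly apart (-2.90 ± 0.39, edgeR adjusted p = 0.000187). Lgals3bp, a secreted galectin-binding glycoprotein, had 52.1, 71.5 and 57.1 CPM in KKO at 48 h, against 99.2, 108 and 93.3 CPM in WT at 48 h, 1.66-fold lower (-0.73 ± 0.10, edgeR adjusted p = 0.000283). Ifitm3, which blocks entry of viruses from endosomes, had 7.18, 9.28 and 5.82 CPM in KKO at 48 h, against 10.005, 13.5 and 13.2 CPM in WT at 48 h. The highest KKO library was just under the lowest WT library (-0.73 ± 0.16, edgeR adjusted p = 0.00592). Bst2, the tetherin that holds budding virus at the cell surface, changed by -0.62 ± 0.09, and Tor3a, an ATPase of the endoplasmic reticulum, by -0.52 ± 0.14. The groups of Tor3a overlapped, and its call was lost under 6 of the alternatives, among them a fit of the 48 h libraries alone. Ly6e, a lipid-anchored surface protein, was the exception: it had 359.98, 345 and 371 CPM in KKO at 48 h, against 292, 306 and 289 CPM in WT at 48 h. Every KKO library was above every WT library, 1.21-fold on average (0.28 ± 0.06, edgeR adjusted p = 0.00489).

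Of the 9 other induced genes 8 fell and Ifi27 was not called. Ifi44, a GTP-binding protein with antiproliferative activity, had 0.492, 0.735 and 1.05 CPM in KKO at 48 h, against 3.21, 7.29 and 6.498 CPM in WT at 48 h, 7.43-fold lower (-2.89 ± 0.35, edgeR adjusted p = 7.94e-05). Xaf1, which binds the apoptosis inhibitor XIAP, had 3.24, 5.49 and 4.53 CPM in KKO at 48 h, against 13.1, 22.1 and 17.2 CPM in WT at 48 h, 3.98-fold lower (-1.99 ± 0.22, edgeR adjusted p = 4.51e-05). Trim30a, which in mouse restrains Toll-like receptor signalling, had 63.1, 80.3 and 79.4 CPM in KKO at 48 h, against 153, 208 and 194 CPM in WT at 48 h, 2.49-fold lower (-1.32 ± 0.12, edgeR adjusted p = 2.01e-05). In none of these did the genotypes overlap. Sp100, a component of PML nuclear bodies, had 120.4, 108 and 122 CPM in KKO at 48 h, against 147, 192 and 179 CPM in WT at 48 h (-0.56 ± 0.08, edgeR adjusted p = 0.000337). Zbp1, a sensor of Z-form nucleic acid, changed by -1.08, Ifi27l2a by -0.99, Epsti1 by -0.46 and Ifi35 by -0.34. The call of Epsti1 was lost under 5 alternatives, that of Ifi35 under 3. Ifi27 had 32.4, 27.3 and 34.6 CPM in KKO at 48 h, against 26.2, 33.8 and 33.1 CPM in WT at 48 h. The genotypes interleaved (0.02 ± 0.13, edgeR adjusted p = 0.935), although its neighbour Ifi27l2a, 1927 bases away on the other strand, was 1.98-fold lower.

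The libraries of 1 genotype did not stand at the same level. At 48 h WT replicate 1 was the lowest WT library for 40 of the 46 genes, and WT replicate 2 the highest for 31. KKO replicate 2 was the highest KKO library for 29 genes, and KKO replicate 1 the lowest for 31. The sum over the 46 genes in the highest KKO library was still below that in the lowest WT library. KKO replicate 2 held Xist and few Y-linked counts, KKO replicate 1 held Y-linked transcripts, and both WT replicates 1 and 2 held Xist. With the male share of each library as a covariate, 41 genes were again lower and 1 higher at 48 h. Leaving out any 1 library left 37 to 42 genes lower and 1 higher. Summed markers of CD8 T cells, B cells, macrophages and monocytes, and plasmacytoid dendritic cells lay apart between genotypes at both times. The CD8 sum, given above for 48 h, was 9.36 to 10.8 CPM in KKO and 7.03 to 8.10 CPM in WT at 24 h. Summed neutrophil markers lay apart at 48 h only, with 0.735 to 3.49 CPM in KKO and 0 to 0.332 CPM in WT. That sum was Ly6g alone in KKO, at 3.49, 0.735 and 2.67 CPM, as S100a8, S100a9 and Mpo were at 0. In WT at 48 h Ly6g had a mean of 0.113 CPM, S100a8 of 0.0158 CPM and Mpo of 0.0181 CPM. Summed conventional dendritic cell markers lay apart at 24 h only, with 2.77 to 3.41 CPM in KKO and 1.85 to 2.71 CPM in WT. The 7 B cell markers, all in the table, summed to 23.9 to 33.9 CPM in KKO and 11.8 to 14.7 CPM in WT at 48 h, and to 19.1 to 27.5 CPM in KKO and 9.21 to 12.6 CPM in WT at 24 h. The 8 macrophage and monocyte markers summed to 11.8 to 14.5 CPM in KKO and 15.9 to 22.9 CPM in WT at 48 h, and lay the other way at 24 h, with 9.73 to 10.01 CPM in KKO and 5.45 to 7.11 CPM in WT. In that list at 48 h Fcgr1 was at 0 in both genotypes, Lyz2 at 0 in KKO and Csf1r at 0 in WT. Its members did not move together: Mpeg1 stood at 2.04 ± 0.982 CPM in KKO and 11.8 ± 2.21 CPM in WT, but Cd68 at 6.28 ± 2.02 CPM in KKO and 2.85 ± 0.739 CPM in WT (SD, n = 3). The 6 plasmacytoid dendritic cell markers summed to 16.1 to 18.7 CPM in KKO and 22.02 to 28.2 CPM in WT at 48 h, and to 30.5 to 34.6 CPM in KKO and 44.025 to 51.5 CPM in WT at 24 h. Pacsin1 made up most of that sum at 48 h, with a mean of 14.9 CPM in KKO and 20.4 CPM in WT, and Siglech, Ccr9 and Klk1 were at 0 in both genotypes. The part of these cells in the values of the 46 genes was not tested.

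At 24 h Ly6e was the only one of these genes that was called between genotypes. Their sum was 1657, 1574 and 1569 CPM in KKO, against 1522, 1539.97 and 1552 CPM in WT. edgeR called 1 of the 46 higher and 0 lower, against 2.33% of all tested genes called, 1.89% higher and 0.432% lower. The unadjusted p was under 0.05 for 6 of the 46, 2 were called by DESeq2 and 1 by limma-voom. At least 2-fold changes were called for 0 of the 46, against 0.0152% of all tested genes lower and 0.523% higher. The median log2 fold change was 0.11 over the 46 genes and -0.00 over all tested genes. The libraries lay apart for 10 genes higher and 5 lower in KKO, with 9.93% and 9.46% of all tested genes doing so. The gene called was Ly6e, with 316, 279 and 293 CPM in KKO at 24 h, against 227, 243 and 241 CPM in WT at 24 h. All KKO libraries were above all WT libraries (0.32 ± 0.06, edgeR adjusted p = 0.00836), as they were at 48 h, but the call was lost without the mixed libraries (edgeR adjusted p = 0.0768) and with the replicate number as a block (edgeR adjusted p = 0.0629). Oasl2, lower in KKO at 48 h, had 0.536, 0.903 and 0.425 CPM in KKO at 24 h, against 0.250, 0.308 and 0.214 CPM in WT at 24 h. Its KKO libraries were the higher ones at this time, at low counts, and it was not called (1.24 ± 0.40, edgeR adjusted p = 0.158). Oas3 had 9.44, 6.86 and 8.55 CPM in KKO at 24 h, against 6.32, 5.27 and 5.85 CPM in WT at 24 h, apart and higher in KKO but not called (0.52 ± 0.16, edgeR adjusted p = 0.155). Lgals3bp (0.34 ± 0.10, edgeR adjusted p = 0.123) and Ifi27 (0.51 ± 0.16, edgeR adjusted p = 0.148) stood likewise.

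The difference between the KKO effects at 48 h and 24 h was tested directly. It was below 0 for all 46 genes, with a median of -1.15 on the log2 scale, against -0.01 over all tested genes. edgeR called 31 of the 46 lower and 0 higher, against 4.18% of all tested genes called, with 2.72% lower and 1.46% higher. At least 2-fold were 21 of the 46 lower and 0 higher, against 0.849% and 0.273% of all tested genes. The smallest p-values were those of Oasl2 (-4.03 ± 0.48, adjusted p = 0.000813), Trim25 (-0.73 ± 0.09, adjusted p = 0.000813) and Ifih1 (-1.31 ± 0.17, adjusted p = 0.00189). Ly6e had a difference of -0.05 ± 0.08 and was not called (edgeR adjusted p = 0.783). The count depended on the libraries and the fit: it was 37 with the replicate block, 37 with the male share as a covariate, 19 without WT replicate 2 at 48 h and 11 without both mixed libraries. In that last fit the median difference was -1.13, and Oasl2, Trim25 and Ifih1 kept adjusted p-values of 0.0111, 0.0178 and 0.0295. The replicate block joined same-numbered libraries of 24 h and 48 h. In KKO these held unlike cells: Xist stood at 76.2 CPM at 24 h and 0.0983 CPM at 48 h in replicate 1. In replicate 3 it stood at 0.0425 CPM at 24 h and 105 CPM at 48 h. The count of 37 with that block is therefore of limited use. The cause of the difference between times was not tested.

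The time course within each genotype compares 48 h with 24 h of activation. In WT 44 of the 46 genes were higher at 48 h than at 24 h, 1 was lower and 1 was not called, and 38 rose at least 2-fold. Much of the transcriptome differed between these times: 60.8% of all tested genes were called, 31.0% higher and 29.7% lower, 12.5% rose at least 2-fold and 2.89% fell at least 2-fold, as did 0 of the 46. For 43 of the 46 every 48 h library of WT was above every 24 h library and for 1 below, while 34.4% and 34.0% of all tested genes lay apart in these directions. The median log2 fold change of the 46 genes was 2.09, against -0.00 over all tested genes. The largest rise in WT was that of Rsad2, with 1.85, 5.21 and 7.49 CPM at 48 h, against 0.107, 0.0616 and 0.0357 CPM at 24 h (6.06 ± 0.57, edgeR adjusted p = 5.54e-07). These 24 h values were near the lower end of detection, so the size of the Rsad2 rise is limited by counting. Oasl2 rose 36.2-fold in WT and 2.22-fold in KKO, a KKO call that was lost without both mixed libraries (edgeR adjusted p = 0.0822). Isg15 rose 22.8-fold in WT (4.51 ± 0.21, edgeR adjusted p = 2.59e-09) and 5.31-fold in KKO (2.41 ± 0.21, edgeR adjusted p = 4.6e-07). This comparison and that of the genotypes at 48 h share the WT libraries at 48 h.

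**Figure D4:**
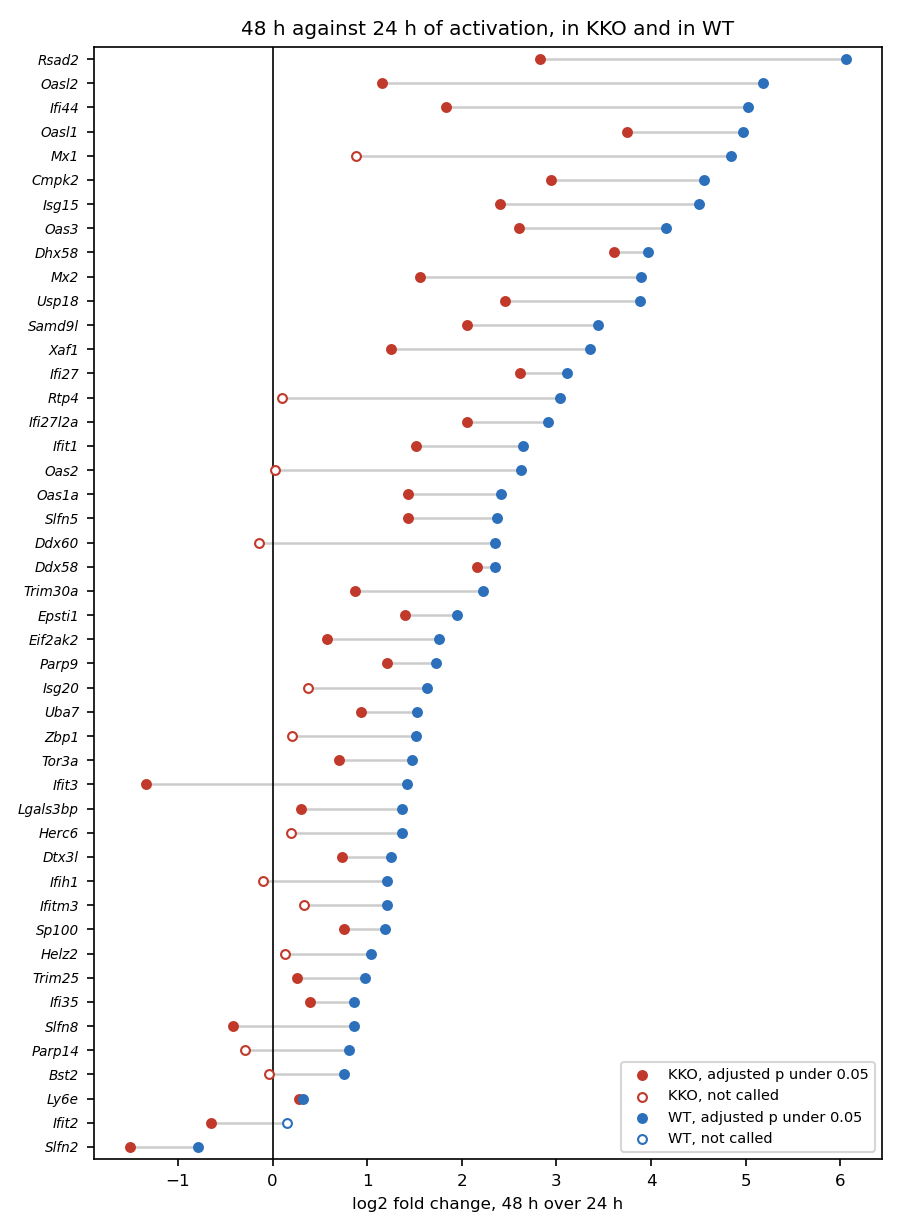
Each row joins the log2 fold change, 48 h over 24 h, of 1 gene in KKO (red) and in WT (blue), sorted by the value in WT; filled points have an adjusted p under 0.05. The red point lies left of the blue point in all 46 rows, and 4 filled red points lie below 0.

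In KKO 30 of the 46 genes were higher at 48 h, 4 were lower and 12 were not called, with 20 at least 2-fold higher and 2 at least 2-fold lower. Of all tested genes 67.8% were called in KKO, 34.4% higher and 33.4% lower, 14.5% at least 2-fold higher and 5.82% at least 2-fold lower. The 48 h libraries of KKO lay apart from those of 24 h for 32 of the 46 genes higher and 3 lower, against 35.7% and 34.7% of all tested genes. The median log2 fold change was 0.81 over the 46 genes and 0.00 over all tested genes. All 30 genes that rose in KKO also rose in WT. Another 12 rose in WT and were not called in KKO: Mx1, Isg20, Oas2, Ifih1, Ddx60, Helz2, Herc6, Parp14, Bst2, Ifitm3, Rtp4 and Zbp1. Ifit3 and Slfn8 rose in WT and fell in KKO. Ifit3 had 0.147, 0.339 and 0.191 CPM at 48 h, against 0.429, 0.821 and 0.468 CPM at 24 h, in KKO (-1.34 ± 0.56, edgeR adjusted p = 0.046). That fall was not called under 12 of the alternatives, and that of Slfn8 not under 6. Ifit2 fell in KKO, with 11.5, 13.9 and 12.02 CPM at 48 h, against 19.8, 19.7 and 19.3 CPM at 24 h (-0.66 ± 0.10, edgeR adjusted p = 2.63e-05), and was not called in WT (0.15 ± 0.09, edgeR adjusted p = 0.165). Slfn2 fell in both, to 115, 196 and 118 CPM at 48 h in KKO, against 415, 413 and 393 CPM at 24 h, and to 262, 266 and 248 CPM at 48 h in WT, against 424, 457 and 456 CPM at 24 h.

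The size order of the time effects was alike in the genotypes, as Pearson's r was 0.78 and Spearman's rho 0.79 over the 46 genes between comparisons that share no library. This is a description across genes, which are not independent replicates. Of the genes called higher over time in both genotypes, Ly6e had the smallest gap, with log2 fold changes of 0.28 in KKO and 0.32 in WT. The sensors Ddx58 (2.16 in KKO and 2.35 in WT) and Dhx58 (3.61 in KKO and 3.97 in WT) and Ifi27 (2.61 in KKO and 3.11 in WT), which are 3 of the 4 genes not called between genotypes at 48 h, rose over 4-fold in both. At the other end Mx1 had log2 fold changes of 0.88 in KKO and 4.85 in WT, and Oasl2 of 1.15 in KKO and 5.18 in WT.

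Levels can be compared between genes only per length. In RPKM, counts per kilobase of exon and per M counts, the highest of the 46 genes in WT at 48 h was Ifi27l2a at 201, with 101.9 in KKO. Slfn2 followed at 156 (85.8 in KKO), then Bst2 at 122 (79.8 in KKO) and Ly6e at 120.3 (146 in KKO). Isg15 was the fifth at 67.9, with 19.4 in KKO. The lowest were Ddx60 at 0.319 (0.0780 in KKO) and Oas2 at 0.286 (0.0807 in KKO). Bst2 and Ly6e, neighbours in that order, do not differ beyond the spread of their libraries. At 24 h the order was led by Slfn2, with 245 RPKM in KKO and 268 RPKM in WT, while Isg15 stood at 3.63 RPKM in KKO and 2.98 RPKM in WT.

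Genes with and without the response element core in the promoter sequence were both lower at 48 h. Of the 15 genes with it, 13 were lower in KKO, and the median log2 fold change was -1.32, with a range of -2.98 to -0.27. Ddx58 and Oas1a were the 2 that were not called. Of the 18 genes with a promoter sequence and no match, 18 were lower, with a median of -0.94 and a range of -2.89 to -0.34. Among the 6 genes whose sequences are printed above, the log2 fold changes were -2.98 for Ifit3, -2.04 for Ddx60, -1.81 for Isg15, -1.69 for Ifit1, -1.04 for Oas3 and -0.62 for Bst2. Several of the genes lie together in the genome. Ifit2, Ifit3 and Ifit1 lie in this order on chromosome 19 (Ifit1 at chr19:34640871-34650009), with 7111 and 52139 bases between them. Oasl2 (chr5:114896936-114912234) and Oasl1 are 11005 bases apart on chromosome 5.

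Other genes of the interferon pathway, among them its negative regulators, were taken from a list of 49, of which 30 passed the filter. At 48 h 11 of the 30 were lower in KKO, 7 were higher and 12 were not called. Of all tested genes 11.9% were lower and 12.4% higher at that time. At 24 h 1 was higher (Socs1) and 0 were lower, against 1.89% and 0.432% of all tested genes. Of the 5 transcription factors 4 were lower at 48 h. Irf7, the factor that amplifies interferon production, had 5.85, 6.79 and 6.82 CPM in KKO at 48 h, against 24.1, 38.4 and 34.2 CPM in WT at 48 h, 4.98-fold lower (-2.32 ± 0.17, edgeR adjusted p = 2.72e-06). Its libraries lay apart. Stat2 (-0.50 ± 0.09) and Irf9 (-0.48 ± 0.06) were lower by like amounts, and Irf1 by -0.71 ± 0.09. Irf3 was not called (-0.04 ± 0.06, edgeR adjusted p = 0.596).

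**Figure D5:**
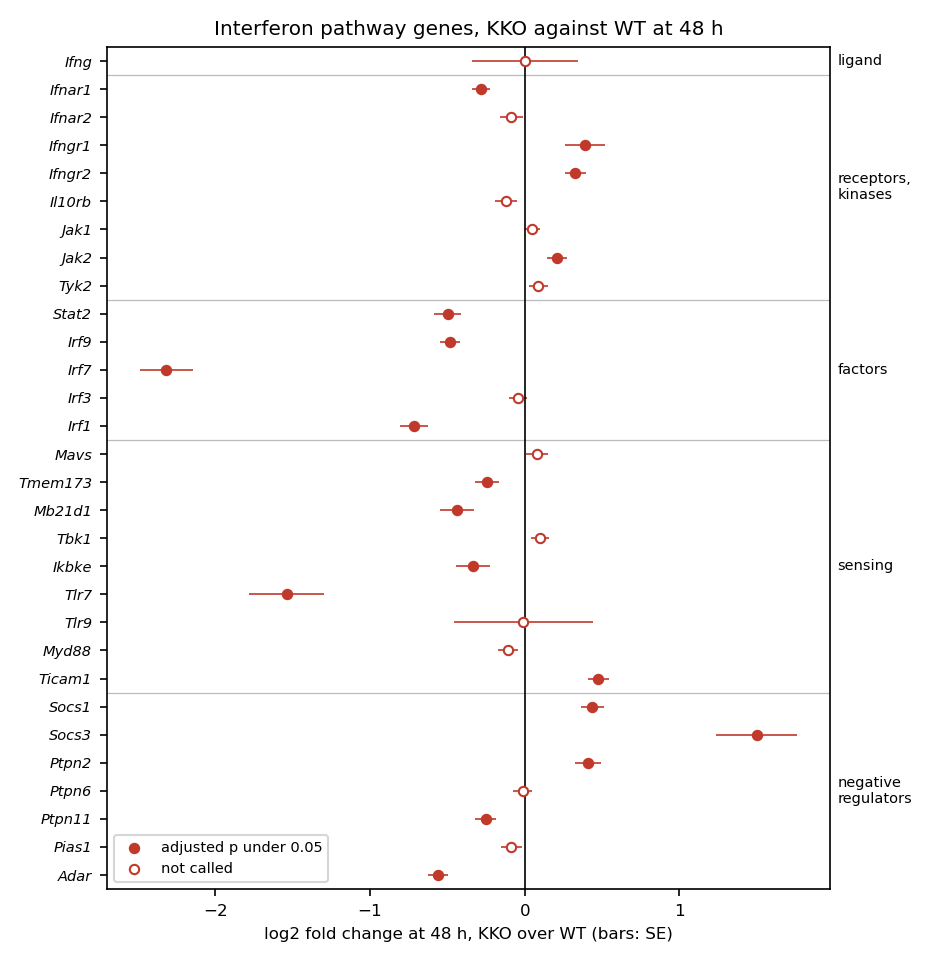
Points show log2 fold changes, KKO over WT at 48 h, with SE, of the 30 tested genes of the interferon pathway in 5 groups; filled points have an adjusted p under 0.05. Irf7 and Tlr7 lie farthest to the left and Socs3 farthest to the right.

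Receptor genes differed little. Ifnar1 was lower at 48 h (-0.28 ± 0.06, edgeR adjusted p = 0.00432), Ifnar2 was not called (-0.09 ± 0.07, edgeR adjusted p = 0.413), and the interferon gamma receptor genes Ifngr1 (0.39) and Ifngr2 (0.33) and the kinase gene Jak2 (0.21) were higher. Of the genes for nucleic acid sensing and its adaptors, 4 were lower and 1 was higher. Tlr7, an endosomal sensor of single-stranded RNA, had 1.18, 2.32 and 1.38 CPM in KKO at 48 h, against 5.06, 5.26 and 3.75 CPM in WT at 48 h, 2.91-fold lower without overlap (-1.54 ± 0.24, edgeR adjusted p = 0.000663). Mb21d1 (the DNA sensor cGAS) changed by -0.44, Ikbke by -0.33 and Tmem173 (STING) by -0.24, while the adaptor gene Ticam1 was higher by 0.48. Among negative regulators, Socs3, an inhibitor of cytokine receptor kinases, had 297, 172 and 284 CPM in KKO at 48 h, against 84.3, 75.3 and 107 CPM in WT at 48 h, 2.83-fold higher (1.50 ± 0.26, edgeR adjusted p = 0.00427). Socs1, the main inhibitor of this pathway, had 187, 178 and 176 CPM in KKO at 48 h, against 138, 136 and 126 CPM in WT at 48 h (0.44 ± 0.07, edgeR adjusted p = 0.000871). It was also higher at 24 h (0.57 ± 0.07, edgeR adjusted p = 0.000605), when it had 77.1, 62.1 and 75.5 CPM in KKO at 24 h, against 49.1, 46.2 and 49.7 CPM in WT at 24 h. The phosphatase gene Ptpn2 was higher (0.41), and Adar (-0.56), an RNA editing enzyme that is itself induced by interferon, and Ptpn11 (-0.25) were lower.

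Transcripts of the interferons themselves were at the limit of detection. Ifnb1 had 0, 0 and 0 counts in KKO at 48 h, against 3, 3 and 3 counts in WT at 48 h, and 0 counts in all libraries at 24 h. With a floor of 3 counts set over the KKO libraries, the ratio of WT to KKO for Ifnb1 was 2.85 per M counts. That ratio leaves out the counting error of the WT counts, so it is not a lower bound. Ifnb1 and the 13 interferon alpha genes together had 0, 2 and 0 counts in KKO at 48 h, against 7, 9 and 14 counts in WT at 48 h. At 24 h they had 0 counts in KKO and 0, 0 and 1 counts in WT. The ratio of KKO to WT for this sum at 48 h, per M counts, was 0.0702. Its 95% interval of 0.00813 to 0.277 came from an exact conditional binomial test of the summed counts and covers counting error only. Ifnk and Ifnz, left out of this sum, were not lower in KKO at 48 h. Ifnk had 0, 1 and 1 counts in KKO and 0, 0 and 0 counts in WT. Ifnz had 3, 2 and 6 counts in KKO and 2, 5 and 3 counts in WT. Interferon gamma, made by T cells themselves and able to induce part of the same genes, was well expressed. Ifng had 63.5, 88.3 and 61.6 CPM in KKO at 48 h, against 73.9, 40.4 and 98.4 CPM in WT at 48 h. The libraries of the genotypes interleaved (0.00 ± 0.34, edgeR adjusted p = 0.995).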

How the data were processed

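RNA of 12 libraries of mouse CD4+ T cells (3 each for KKO and WT at 48 h and 24 h) was sequenced in read pairs. The deposited table holds expected counts per gene, which the authors made with RSEM and did not normalise; FastQC, RSEM and mouse build mm10 are named in the submitters' processing notes, and no version, aligner or annotation is given in the sources used here. A human reference is mentioned in the design text, while organism label and symbols are of mouse. In an expected count, reads that match several genes are divided between them. The table has 32698 gene rows, 27 of them named as dates, and 1 row named unknown was left out. Another 6 columns were not used, since no sample label describes them. Depth was 17.8 to 32.6 M counts per library. No pair of replicates was alike within counting noise (chi-square divided by its degrees of freedom was 5.83 to 23.6).

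The counts, rounded to whole numbers, were analysed in edgeR 4.0.16 (R 4.3.3; filterByExpr on the 4 groups, TMM scaling, robust quasi-likelihood F tests, 13196 genes). A single fit with 1 mean per group held all libraries and left 8 residual degrees of freedom. It gave 5 comparisons: KKO against WT at 48 h and at 24 h, the difference between them, and 48 h against 24 h in KKO and in WT. Calls are at an adjusted p under 0.05 (Benjamini-Hochberg, all tested genes). Tests were 2-sided. Each SE was derived as the absolute log2 fold change divided by the square root of the F statistic. CPM used TMM-scaled totals, and RPKM used exon lengths of the GENCODE basic annotation of GRCm38, which may differ from the authors'. Promoters came from RefSeq (GRCm38.p6). Dhx58, Ifi27, Ifi27l2a, Ly6e, Mx1, Mx2, Oas2, Parp14, Parp9, Rtp4, Tor3a, Usp18 and Zbp1 had none matched.

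The 46 genes, the pathway and marker lists, the tests and the alternatives were chosen with earlier results of these data known. Per role group, values are printed for the 3 genes with the largest change at 48 h, the most abundant gene, genes against their group's direction, genes called at 24 h and the 3 smallest p-values of the difference between times; Rsad2, Oas1a, Ddx58, Dhx58, Ifit2 and the pathway genes given by library were added after their values were seen. Same-numbered WT libraries deviated together across time (correlations 0.126, 0.103 and 0.343) and same-numbered KKO libraries less (0.0287, 0.0852 and 0.0408); what the numbers mark is not given. The alternatives tried were DESeq2 1.42.0, limma-voom (limma 3.58.1), scaling by RLE or upper quartile, no filter or one of 1 CPM in 6 libraries, only the groups compared, a replicate block, stricter thresholds, the male share by Y-linked counts as an added term, and leaving out libraries. A gene of the pathway list is not reported here, and the counts over that list leave it out.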

Additional observations from a re-analysis of the deposited data

Results flagged for a closer look

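A difference between the KKO effects at 48 h and 24 h, called by edgeR's quasi-likelihood test of the interaction (adjusted p under 0.05), was found for 31 of the 46 interferon genes, in all of them with a lower value at 48 h. Of all tested genes 4.18% were called, with 2.72% lower. Without both mixed libraries 11 of the 46 were called. The call of Sp100 was lost under 13 alternatives, and those of Ifit3 and Ifitm3 under 12 each. Values listed by gene are the KKO effect at 48 h minus that at 24 h, on the log2 scale. The antiviral effectors had Mx1 -3.97, Ifit3 -2.76, Mx2 -2.33, Samd9l -1.38, Isg20 -1.26, Eif2ak2 -1.19 and Ifit2 -0.81. The synthetases had Oasl2 -4.03 and Oas3 -1.56, and the sensors had Ddx60 -2.50, Ifih1 -1.31 and Helz2 -0.91. Genes of the ISG15 system had Isg15 -2.10, Usp18 -1.43, Herc6 -1.17 and Trim25 -0.73. The ADP-ribosylation genes had Parp14 -1.09, Dtx3l -0.52 and Parp9 -0.52, and the Schlafen genes had Slfn8 -1.27 and Slfn5 -0.94. Membrane and secreted proteins had Rtp4 -2.94, Lgals3bp -1.08, Ifitm3 -0.88 and Bst2 -0.79. The other induced genes had Ifi44 -3.20, Xaf1 -2.10, Trim30a -1.35, Zbp1 -1.31, Ifi35 -0.46 and Sp100 -0.44. The largest difference, that of Oasl2, joins a level of 1.38 ± 0.255 CPM in KKO and 9.56 ± 2.58 CPM in WT at 48 h with 0.622 ± 0.250 CPM in KKO and 0.257 ± 0.0473 CPM in WT at 24 h (SD, n = 3). Of the 46 genes 15 were not called: Ifit1, Rsad2, Cmpk2, Oas1a, Oas2, Oasl1, Ddx58, Dhx58, Uba7, Slfn2, Ly6e, Tor3a, Ifi27, Ifi27l2a and Epsti1.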

How the results depend on the processing

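No called direction was reversed in the alternatives run. The median log2 fold change of the 46 genes ran from -1.16 to -0.93 at 48 h, and all alternatives of scaling moved the median over all genes by less than 0.1. Called interferon genes numbered 38 to 43 at 48 h, 1 to 2 at 24 h, 19 to 37 for the difference between times, 31 to 35 for time in KKO and 45 to 45 for time in WT when each library was left out in turn. For all genes these ranges were 1405 to 5361 at 48 h, 132 to 505 at 24 h, 143 to 3217 for the difference, 8262 to 9246 in KKO and 7245 to 8479 in WT. At 24 h 2 interferon genes were called with only the groups compared, 2 with DESeq2, 2 with the replicate block (Oas3 and Lgals3bp, with Ly6e not called), 0 without both mixed libraries and 0 at a 2-fold threshold. At 48 h 24 were called at 2-fold, and in KKO over time 22. For the difference 11 were called without both mixed libraries and 16 at an adjusted p under 0.01. Of all genes at 24 h, 524 were called with only the groups compared, 107 without both mixed libraries, 468 with DESeq2, 128 at an adjusted p under 0.01 and 71 at 2-fold. At 48 h these were 1536 with only the groups compared, 1386 without both mixed libraries, 1363 at an adjusted p under 0.01 and 561 at 2-fold. For the difference they were 931 with the replicate block, 1395 with the male share, 54 without both mixed libraries, 1064 with DESeq2, 85 at an adjusted p under 0.01 and 148 at 2-fold. Over time, 2677 in KKO and 2028 in WT passed 2-fold. The cause was not tested. With the replicate block 41 interferon genes were called at 48 h, 37 for the difference, 36 in KKO over time and 45 in WT over time. For the difference and for KKO over time, the block joined KKO libraries that held unlike cells, as given above. Same-numbered libraries had correlations over 0.1 in all 3 pairs only in WT over time. Between genotypes same-numbered libraries had correlations of -0.317 to 0.224. The difference could not be fitted with only the groups compared, since it needs all 4. Genes under about 1 CPM, such as Oas2, Ifit3 and Ddx60 in KKO, are limited by counting.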

Other observations

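The interferon pathway genes were also compared over time. At 48 h against 24 h in KKO, 14 of the 30 tested were higher and 8 lower. Of all tested genes 34.4% were higher and 33.4% lower in KKO. In WT 17 of the 30 were higher and 6 lower, against 31.0% and 29.7% of all tested genes. The difference between the KKO effects at the 2 times was called for 7 of the 30, 6 lower and 1 higher at 48 h. Of all tested genes 2.72% were called lower and 1.46% higher for that difference. Transcripts of Ifnz, the interferon zeta gene, were counted in both genotypes, with 3, 2 and 6 counts in KKO at 48 h and 2, 5 and 3 counts in WT at 48 h.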
